A study of Homo sapiens with 6 samples.

Results

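The genes described here are 9 components of the epithelial tight junction: the claudins CLDN1, CLDN3, CLDN4, CLDN7 and CLDN12, the membrane proteins OCLN and F11R, and the scaffold proteins TJP1 and TJP3. Their probes were taken as all non-control probes whose RefSeq accession belongs to a gene with one of these symbols. This gave 11 probes for 8 of the 9 genes, of 34127 non-control probes on the array. All 11 were well above background on all 6 arrays. No probe was matched to TJP3 in this way, and TJP3 was not analysed here.

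RNA came from CAL-27, an established human tongue squamous cell carcinoma line. The cells had been stably transduced, by the study's methods, with a short hairpin RNA against XBP-1s (shXBP-1s, n = 3) or carried a negative control hairpin (shCtrl, n = 3), and both groups are the same line with no other agent named in the labels. XBP-1s is the spliced product of XBP1, a transcription factor that the endoplasmic reticulum sensor IRE1α activates during the unfolded protein response. The hairpin sequence, the time to harvest and the use of clones or pools are not given in the sources used here, nor is it stated that the arrays came from separate cultures, so p-values measure only the spread between these 6 arrays.

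Tight junctions seal the space between neighbouring epithelial cells near their apical border. Claudins are membrane proteins that join into strands and set which ions and small molecules pass between cells, and occludin and junctional adhesion molecules lie beside them in the same strands or at the same contacts. The zonula occludens (ZO) proteins bind the claudin tails on the inner face of the membrane and tie the strands to actin. In a stratified epithelium such as the epidermis they seal the upper living layers.

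The targeted gene was checked first. The background-subtracted signal of the 1 XBP1 probe was 2536.2 to 2766.0 in shCtrl and 551.0 to 695.4 in shXBP-1s. After scaling of each array to its 75th percentile, XBP1 was 5.23-fold lower in shXBP-1s (log2 change -2.39, SE 0.04, n = 3 per group, adjusted p = 2.81e-07 by limma with Benjamini-Hochberg adjustment over 27624 probes). Spliced and unspliced XBP1 messages were not measured apart. The 75th percentile itself was 687.4 to 761.3 in shCtrl and 792.0 to 983.4 in shXBP-1s, so unscaled signals ran higher in shXBP-1s and only the scaled log2 values were tested.

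The arrays had been scanned in 2 runs by their scan times. Replicates 2 and 3 of shCtrl were in scan 1, and replicate 1 of shCtrl and the 3 shXBP-1s arrays were in scan 2. A fit with the scan as a block therefore compares shXBP-1s with shCtrl replicate 1 alone, and its value is given for the members below.

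Of the 8 tight junction genes with a probe, each represented by its brightest one, 7 changed at an adjusted p below 0.05. CLDN1, CLDN7, OCLN and TJP1 rose in shXBP-1s, CLDN3, CLDN4 and CLDN12 fell, and F11R did not pass the test. Over all 16821 genes with a tested probe, 46.4% changed at the same threshold, 18.9% upwards and 27.5% downwards. CLDN3 was the single member that changed by 2-fold or more, against 5.18% of all genes in either direction and 2.88% downwards. The median log2 change of the members was 0.17, and that of all genes was -0.041.

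**Figure D1:**
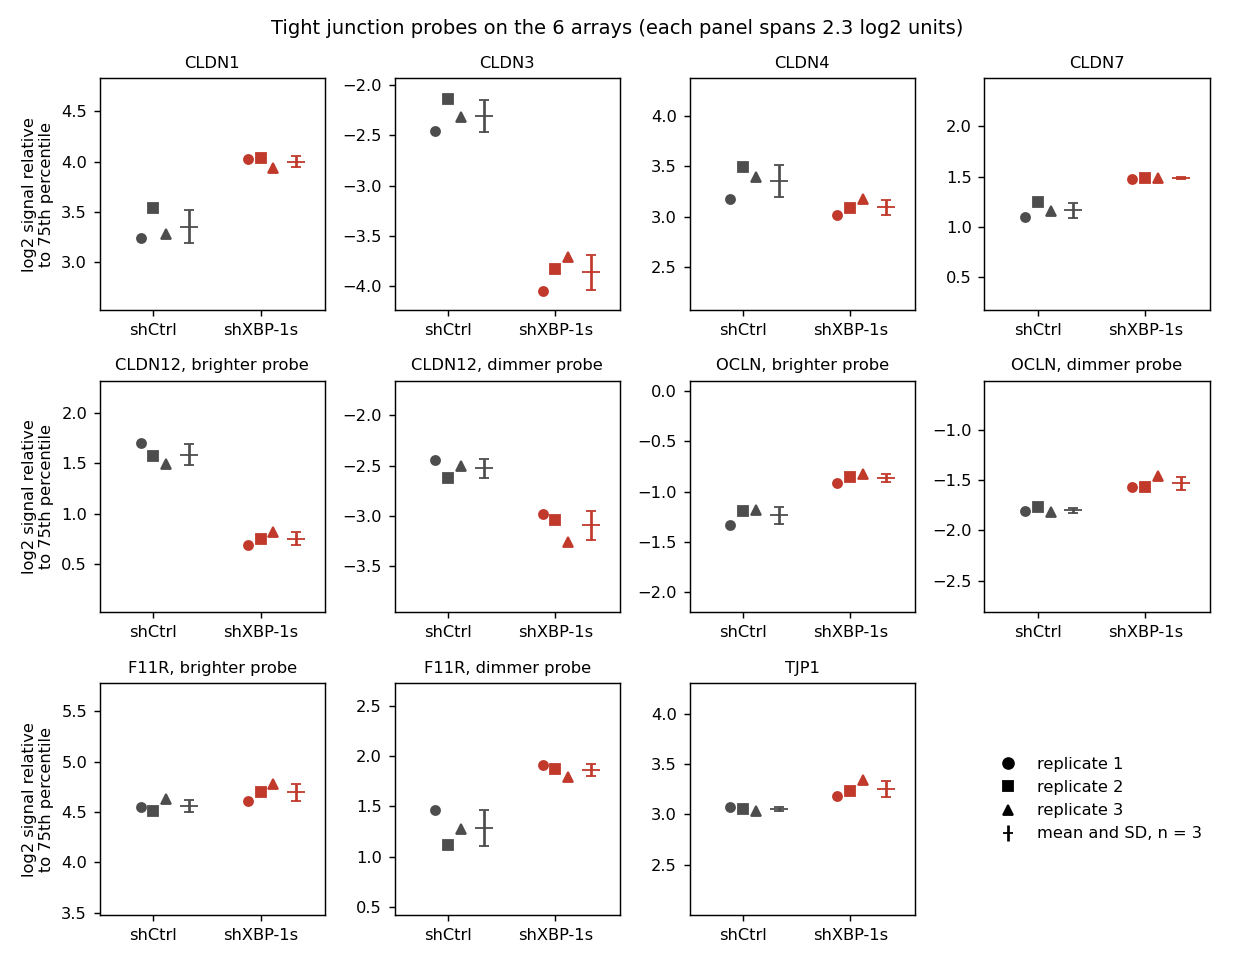
Each panel plots 1 probe, with the log2 signal relative to the array's 75th percentile on the y axis and the 3 shCtrl (grey) and 3 shXBP-1s (red) arrays on the x axis; bars are the mean and SD (n = 3), and every panel spans the same number of log2 units. CLDN3 showed the widest gap, from -2.31 to -3.86, and the groups were apart in every panel except that of the brighter F11R probe.

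CLDN3 had the largest change among the members. CLDN3 is a barrier-forming claudin and, with CLDN4, a receptor for Clostridium perfringens enterotoxin. Its probe (NM_001306) gave background-subtracted signals of 124.8, 172.3 and 151.4 on the 3 shCtrl arrays and of 59.5, 63.1 and 60.5 on the 3 shXBP-1s arrays. All 3 shXBP-1s arrays lay below all 3 shCtrl arrays. On the scaled log2 scale the mean fell from -2.31 ± 0.16 to -3.86 ± 0.17 (SD, n = 3 each), a 2.93-fold decrease (log2 change -1.55, SE 0.11, 95% confidence interval -1.82 to -1.29, adjusted p = 2.6e-05 by limma). The change was larger in size than that of 98.7% of the tested probes. Within scan 2 it was -1.40 (adjusted p = 4.23e-04 by limma). With the normexp background correction followed by quantile normalization the decrease was smaller, -0.85 on the log2 scale, and no longer reached 2-fold.

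CLDN4 is the neighbour of CLDN3 on chromosome 7 and is known for limiting cation passage. Its probe (NM_001305) gave signals of 6221.6, 8582.4 and 7931.8 in shCtrl and of 7984.9, 7574.2 and 7143.4 in shXBP-1s. These unscaled signals overlapped between the groups. The scaled log2 values were 3.18, 3.50 and 3.39 in shCtrl and 3.02, 3.08 and 3.17 in shXBP-1s, so that after scaling the lowest shCtrl array lay just above the highest shXBP-1s array. The log2 change was -0.26 (SE 0.08, 95% confidence interval -0.46 to -0.07, adjusted p = 0.0371 by limma). Within scan 2 it was -0.086. The call was lost in 13 of 18 alternative settings, so whether CLDN4 passed the test depended on the processing and on the arrays used. Among the 13 were the fits without shCtrl replicate 2 (-0.19), without shCtrl replicate 3 (-0.24), without shXBP-1s replicate 1 (-0.23) and without shXBP-1s replicate 2 (-0.26).

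Both genes were also set against each other within each array, which removes any factor common to the whole array. The log2 ratio of CLDN3 to CLDN4 was -5.64, -5.64 and -5.71 on the shCtrl arrays and -7.07, -6.91 and -6.88 on the shXBP-1s arrays. The 2 groups of ratios did not overlap. The ratio was 2.45-fold lower in shXBP-1s (log2 difference -1.29, SE 0.06, exact permutation p = 0.1, two-sided, which is the smallest p that 3 against 3 arrays allow, and 0.1 after Benjamini-Hochberg adjustment over 3 pairs).

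The promoter sequences of CLDN3 and CLDN1, the members with the largest decrease and the largest increase, are shown because the targeted factor binds DNA. They are the 250 bases before the gene start in RefSeq (GRCh38.p14), written 5′ to 3′ on the strand of the gene. Capitals mark matches to 3 motifs searched on both strands: TGACGTG, the core of the unfolded protein response element (UPRE) to which XBP1 is known to bind; CCACG, the 3′ part of the endoplasmic reticulum stress element (ERSE); and CAGGTG, the E-box bound by Snail-family repressors.
CLDN3, chr7:73770271-73770520, minus strand: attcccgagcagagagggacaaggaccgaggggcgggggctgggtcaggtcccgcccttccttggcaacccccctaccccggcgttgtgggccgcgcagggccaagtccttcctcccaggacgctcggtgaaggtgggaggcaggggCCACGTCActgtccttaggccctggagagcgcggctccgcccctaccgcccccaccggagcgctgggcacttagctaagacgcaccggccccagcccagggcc
CLDN1, chr3:190322447-190322696, minus strand: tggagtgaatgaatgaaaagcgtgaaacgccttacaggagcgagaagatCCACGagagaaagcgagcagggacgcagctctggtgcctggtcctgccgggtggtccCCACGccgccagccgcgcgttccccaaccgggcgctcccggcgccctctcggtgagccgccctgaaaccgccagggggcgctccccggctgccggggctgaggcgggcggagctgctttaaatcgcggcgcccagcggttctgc

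Of the 9 members, 8 had a promoter in the RefSeq table, and each was searched from 250 bases before to 50 bases after its start. TGACGTG was found in 1 of the 8, CLDN3, on the reverse strand and starting 102 bases before the gene start, where it overlaps a CCACG match. This motif occurred in 1.97% of 35116 promoters of the same length. CCACG occurred in 5 of the 8 (CLDN1, CLDN3, CLDN12, TJP1 and TJP3), against 38.1% of all promoters, and CAGGTG in 3 of the 8 (CLDN3, OCLN and TJP1), against 20.6%. The whole ERSE, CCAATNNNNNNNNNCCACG, was in none of the 8 and in 0.0769% of all promoters. CLDN4 and CLDN7 held none of these motifs in this window. Binding was not measured on these arrays, and the matches are a description of letters in a window. 4 of the matches before the start are also given in windows of 30 bases, with the motif in capitals: the single TGACGTG match, and 1 match from each of CLDN12, OCLN and TJP1, whose promoters are not shown whole.
CLDN3, chr7:73770354-73770383, minus strand: gaggcaggggcCACGTCActgtccttaggc
CLDN12, chr7:90403400-90403429, plus strand: tgccgttcagggCCACGggaaaacctgact
OCLN, chr5:69492502-69492531, plus strand: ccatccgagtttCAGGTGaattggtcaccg
TJP1, chr15:29969120-29969149, minus strand: gcggccggcgcgCAGGTGgcccggcctcgc

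CLDN1 rose the most. CLDN1 is the main barrier claudin of the epidermis. Its probe (NM_021101) gave signals of 6483.0, 8840.8 and 7329.6 in shCtrl and of 16059.6, 14632.3 and 12158.3 in shXBP-1s. Every shXBP-1s array was above every shCtrl array. The scaled log2 mean rose from 3.35 ± 0.16 to 4.00 ± 0.05 (SD, n = 3 each), a 1.57-fold increase (log2 change 0.65, SE 0.08, 95% confidence interval 0.46 to 0.84, adjusted p = 4.13e-04 by limma). It was larger in size than the change of 86.2% of tested probes. Within scan 2 the change was 0.76 (adjusted p = 0.00147 by limma). The CLDN1 increase passed the test in all 18 alternative settings, between 0.59 and 0.78.

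CLDN7 rose by less. CLDN7 lies largely along the lateral membrane and is known to bind EPCAM, an epithelial adhesion protein. Its probe (NM_001307) gave signals of 1470.9, 1805.2 and 1685.2 in shCtrl and of 2726.1, 2510.6 and 2218.2 in shXBP-1s. The groups were apart, and the scaled values of the 3 shXBP-1s arrays lay close together. The scaled log2 mean rose from 1.17 ± 0.07 to 1.48 ± 0.01 (SD, n = 3 each), or 1.24-fold (log2 change 0.31, SE 0.05, adjusted p = 0.00142 by limma), and within scan 2 by 0.38 (adjusted p = 0.00311 by limma). All 18 alternatives kept this call, between 0.28 and 0.38. Within an array the ratio of CLDN1 to CLDN7 was higher in shXBP-1s by 0.33 on the log2 scale (SE 0.06, exact permutation p = 0.1, two-sided), and the groups of ratios did not overlap.

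CLDN12 fell. CLDN12 differs from the other claudins here in lacking the tail motif that binds the PDZ domains of ZO proteins, and it has been linked to calcium passage between cells. The brighter of its 2 probes (both NM_012129) gave signals of 2233.0, 2264.3 and 2123.7 in shCtrl and of 1583.5, 1503.0 and 1393.5 in shXBP-1s. The dimmer gave 126.5, 123.2 and 133.3 in shCtrl and 124.6, 108.7 and 82.9 in shXBP-1s. The unscaled signals overlapped for the dimmer probe, and after scaling both probes had every shXBP-1s array below every shCtrl array. The brighter probe was 1.79-fold lower (log2 change -0.84, SE 0.06, 95% confidence interval -0.99 to -0.69, adjusted p = 3.17e-05 by limma), and the dimmer 1.48-fold lower (log2 change -0.57, SE 0.09, adjusted p = 0.00161 by limma). The brighter probe's change was larger in size than that of 91.9% of tested probes and was -0.95 within scan 2. It held in all 18 alternatives, between -0.95 and -0.63. The dimmer probe lost its call under normexp (-0.77, adjusted p = 0.135 by limma), and it was smallest under normexp with quantile normalization, at -0.34. Within scan 2 the dimmer probe was at -0.65.

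OCLN encodes occludin, a tetraspan membrane protein of the strands that contributes to their stability. Its brighter probe gave signals of 273.2, 333.4 and 333.2 in shCtrl and of 523.2, 494.6 and 446.3 in shXBP-1s. Its dimmer probe gave 196.5, 223.2 and 214.0 in shCtrl and 331.8, 301.9 and 288.1 in shXBP-1s. Both probes (NM_002538) separated the groups in the same direction. The brighter rose 1.29-fold (log2 change 0.37, SE 0.06, 95% confidence interval 0.23 to 0.51, adjusted p = 0.00151 by limma) and the dimmer by 0.27 on the log2 scale (SE 0.06, adjusted p = 0.00571 by limma). Within scan 2 the brighter probe's change was 0.47 and the dimmer probe's was 0.28. Under the normexp correction without quantile normalization, which moved the median of all probes to -0.41, the brighter probe was at 0.15 and the dimmer at -0.038, and neither passed the test. RefSeq lists a near-copy, the pseudogene OCLNP1, whose share in these signals was not tested.

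F11R encodes junctional adhesion molecule A (JAM-A), an immunoglobulin-family protein that takes part in the first contacts of a forming junction. Its brighter probe gave signals of 16094.5, 17298.5 and 18655.4 in shCtrl and of 24012.0, 23135.8 and 21691.2 in shXBP-1s. Its scaled log2 values were 4.55, 4.51 and 4.63 in shCtrl and 4.61, 4.69 and 4.78 in shXBP-1s. The scaled values overlapped, since shXBP-1s replicate 1 lay below shCtrl replicate 3. The log2 change of 0.13 (SE 0.06, 95% confidence interval -0.01 to 0.27) did not pass the test (adjusted p = 0.117 by limma). Within scan 2 the change of this probe was 0.14.

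The dimmer F11R probe, also annotated to NM_016946, gave signals of 1900.2, 1651.2 and 1823.8 in shCtrl and of 3698.1, 3280.2 and 2743.1 in shXBP-1s. Here the groups did not overlap. This probe rose 1.49-fold (log2 change 0.57, SE 0.09, 95% confidence interval 0.37 to 0.77, adjusted p = 0.00106 by limma). Within scan 2 its change was smaller, 0.39. The change of the dimmer probe exceeded that of the brighter by 0.44 on the log2 scale (SE 0.13, exact permutation p = 0.1, two-sided), a comparison chosen after the values were seen. Averaged over both probes F11R rose by 0.35 (adjusted p = 0.00167 by limma). The brighter probe alone also passed the test under quantile normalization (0.25), under normexp with quantile normalization (0.23) and in the deposited log2 values (0.22), so whether F11R counts as changed depended on the probe and on the normalization. Within an array, the ratio of OCLN to the brighter F11R probe was higher in shXBP-1s by 0.24 on the log2 scale (SE 0.06, exact permutation p = 0.1, two-sided). Its direction turned under normexp (-0.11) and, in a comparison added after the data were seen, with the dimmer F11R probe (-0.20, SE 0.16, exact permutation p = 0.3).

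TJP1 encodes ZO-1, the scaffold that links claudins, occludin and JAM-A to actin. Its probe (NM_003257) gave signals of 5770.8, 6309.8 and 6191.3 in shCtrl and of 8936.3, 8387.7 and 7998.0 in shXBP-1s. The groups were apart also after scaling. The scaled log2 mean rose from 3.05 ± 0.02 to 3.25 ± 0.08 (SD, n = 3 each), or 1.15-fold (log2 change 0.20, SE 0.05, 95% confidence interval 0.08 to 0.32, adjusted p = 0.0166 by limma). TJP1 showed the smallest change of the members that passed, below the median size of all probes, as 45.2% of tested probes changed by less. Within scan 2 its change was 0.18 (adjusted p = 0.116 by limma). The call was also lost without shCtrl replicate 3 (0.19) and without shXBP-1s replicate 2 (0.21).

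**Figure D2:**
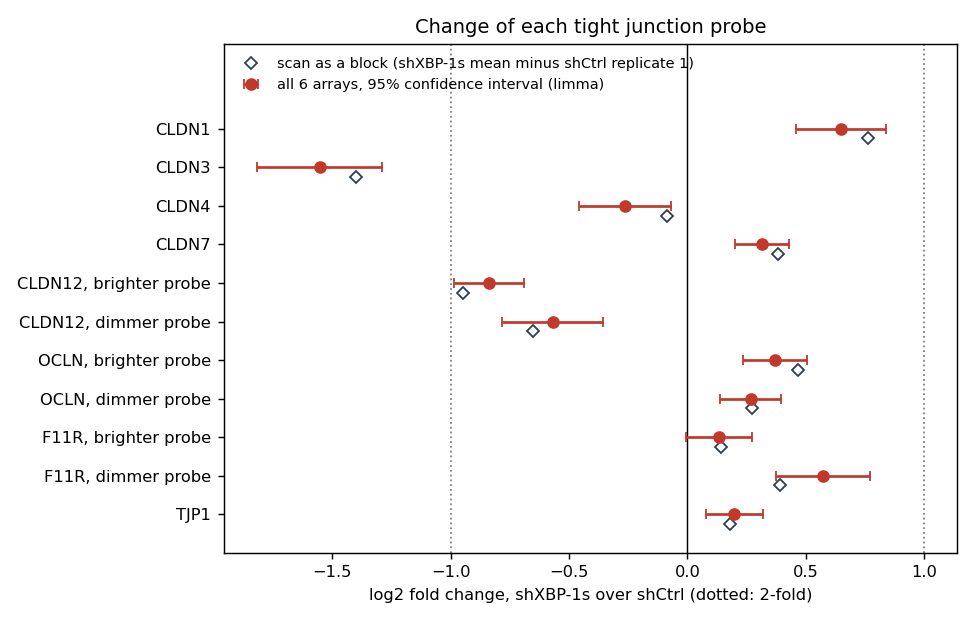
The x axis is the log2 fold change of each probe, shXBP-1s over shCtrl, for all 6 arrays (circles, with the 95% confidence interval from limma) and with the scan as a block (diamonds); dotted lines mark 2-fold. CLDN3 lies at -1.55, beyond 2-fold, CLDN12 at -0.84 and CLDN1 at 0.65, and the diamond of CLDN4, at -0.086, lies close to 0.

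The scaled groups did not overlap in 7 of the 8 members, against 56.5% of all genes with a tested probe. The exact permutation p was 0.1 for each of these 7 and 0.2 for the brighter F11R probe. A different count, that of members changed at the adjusted p threshold, was 7 in the reported fit. It lay between 5 and 8 across the 19 alternatives tried for it, stricter threshold included. CLDN1, CLDN3, CLDN7 and CLDN12 (brighter probe) kept their direction and passed the test in all 18 alternatives run for single genes.

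**Figure D3:**
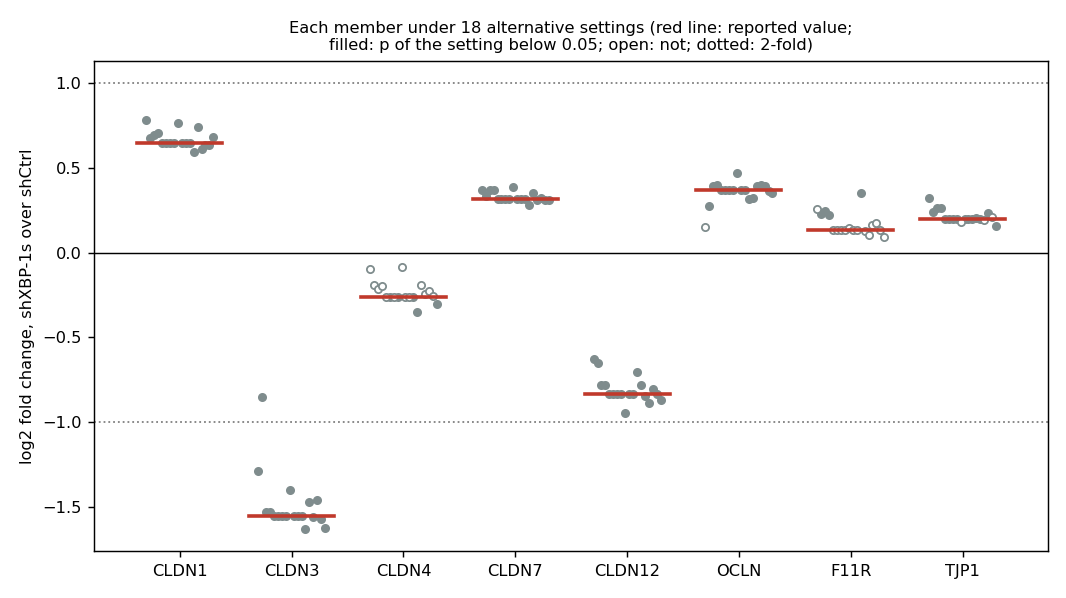
The y axis is the log2 fold change of each member, shXBP-1s over shCtrl, under 18 alternative settings (points; filled where the p of that setting was below 0.05) beside the reported value (red line). CLDN4 ranged from -0.35 to -0.086 with most points open, whereas CLDN1 ranged from 0.59 to 0.78 with all points filled.

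Few claudins outside the members passed the test. Of 18 other claudins on the array, 5 (CLDN8, CLDN10, CLDN17, CLDN18 and CLDN20) were well above background on no array and 13 were tested. CLDN2, a cation-pore claudin, rose (log2 change 0.46, SE 0.08, adjusted p = 0.00218 by limma), with signals of 126.0 to 131.9 in shCtrl and 177.3 to 252.2 in shXBP-1s. CLDN22 also rose (0.46, SE 0.15, adjusted p = 0.0368 by limma), at signals of 15.3 to 30.5, but was at 0.18 within scan 2 (adjusted p = 0.415 by limma). CLDN23 fell (-0.16, SE 0.05, adjusted p = 0.0236 by limma). The other 10 did not pass the test, none of the 13 changed by 2-fold, and the median was -0.06. Several of the 10 were dim and imprecise, such as CLDN5 (signals of 7.5 to 13.1, SE 0.26) and CLDN11 (5.3 to 11.7, SE 0.24). CLDN19 was brighter (552.0 to 857.6), at 0.13 (SE 0.06). The dimmer CLDN19 probe was at -0.77 (SE 0.33, adjusted p = 0.0967 by limma), so the probes of this gene disagreed in direction. For the dim genes a missed call is no evidence of a stable level. The claudins given with values here were named after their values were seen. The share of 23.1% was below that of all genes (46.4%), and the difference was not tested.

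Other tight junction proteins split between both directions. Of 29 genes (further scaffolds, cingulins, angulins, adhesion molecules and polarity proteins), 26 were tested, of which 4 rose, 9 fell and 13 did not pass the test, with a median of -0.09. The 50% that changed lay near the 46.4% of all genes. The fit put 2 genes past 2-fold, MAGI1 and AMOT, against 5.18% of all genes, and both were dim, with signals of at most 20.1. AMOT, an angiomotin, was well above background on all 3 shCtrl arrays and on no shXBP-1s array. It passed the filter only through shCtrl, and it is counted among the 9 that fell. AMOT was at least 1.53-fold lower in shXBP-1s, a bound short of 2-fold. The adjusted p of 0.0149 (limma) belongs to the fitted difference and not to this bound. MAGI1, a multi-PDZ scaffold, was at -1.36 (SE 0.45, adjusted p = 0.0428 by limma) with signals that overlapped between the groups, and its other probes were at -0.38 (adjusted p = 0.242) and -0.86 (adjusted p = 0.0212). The MAGI1 probe at -1.36 was above background on all shCtrl arrays and in 2 of 3 shXBP-1s replicates. In shXBP-1s the probe at -0.38 was above background on 2 of 3 arrays and the probe at -0.86 on 1 of 3. Each MAGI1 probe thus passed the filter only through shCtrl. Both calls were lost with the scan as a block (adjusted p = 0.311 for MAGI1 and 0.1 for AMOT by limma).

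Brighter probes of that group gave changes under 2-fold. CGNL1, which encodes paracingulin, rose by 0.90 (SE 0.07, adjusted p = 2.55e-05 by limma). Its signals were still modest, at 66.4 to 70.8 in shCtrl and 145.8 to 167.1 in shXBP-1s. AMOTL2, an angiomotin-like protein, fell by 0.87 (SE 0.07, adjusted p = 5.74e-05 by limma). LSR, an angulin of tricellular contacts, rose by 0.26 (SE 0.05), while CGN, which encodes cingulin, fell by 0.26 (SE 0.06). The other listed angulins, ILDR1 (0.02, adjusted p = 0.889) and ILDR2 (0.07, adjusted p = 0.655), did not pass the test by limma. CGNL1, AMOTL2, LSR, CGN, ILDR1 and ILDR2 were named after their values were seen.

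Among regulators and partners of junction genes, 21 were tested, of which 5 rose, 4 fell and 2 passed 2-fold. The 42.9% that changed stood beside 46.4% of all genes, and the 2 of 21 past 2-fold beside 5.18% of all genes. SNAI2, a Snail-family repressor that binds E-boxes, rose by 1.47 (SE 0.06, adjusted p = 2.28e-06 by limma), with signals of 398.8 to 456.1 in shCtrl and 1384.5 to 1505.1 in shXBP-1s. ELF3, an epithelial ETS-family activator, fell by 1.27 (SE 0.08, adjusted p = 1.18e-05 by limma), with signals of 1270.3 to 1278.2 in shCtrl and 511.7 to 775.8 in shXBP-1s. SNAI1, a close relative of SNAI2, went the other way from it, falling by 0.66 (SE 0.09, adjusted p = 5.5e-04 by limma), and was named after its value was seen. EPCAM, the partner of CLDN7, was at 0.01 (SE 0.06, adjusted p = 0.881 by limma) and GRHL2, an activator of claudin genes, at -0.07 (SE 0.07, adjusted p = 0.447 by limma).

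The adherens junction, the cadherin-based contact beneath the tight junction, was measured in all 13 of its listed genes. Of these, 6 rose and 4 fell, none by 2-fold, with a median of 0.15. This was 76.9% of the list, beside 46.4% of all genes, and the difference was not tested. CDH1, which encodes E-cadherin, was at 0.13 (SE 0.07, 95% confidence interval -0.02 to 0.29, adjusted p = 0.143 by limma). The largest rise was that of NECTIN1 (0.77, SE 0.07) and the largest decrease that of NECTIN2 (-0.62, SE 0.06), a pair of adhesion molecules named after their values were seen. The dimmer NECTIN2 probe was at 0.15 (adjusted p = 0.118 by limma), so the 2 probes of this gene disagreed. CTNND1 was at -0.24 with its brighter probe and at 0.34 with its dimmer (adjusted p = 0.00653 and 0.0076 by limma). CTNNA1 was at -0.19 and 0.06. CTNNB1, counted as not changed at 0.01, was at 0.40 with its dimmer probe (adjusted p = 0.013 by limma). With the mean over probes, 7 genes of the list rose and 2 fell. These catenin genes were named after their values were seen.

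**Figure D4:**
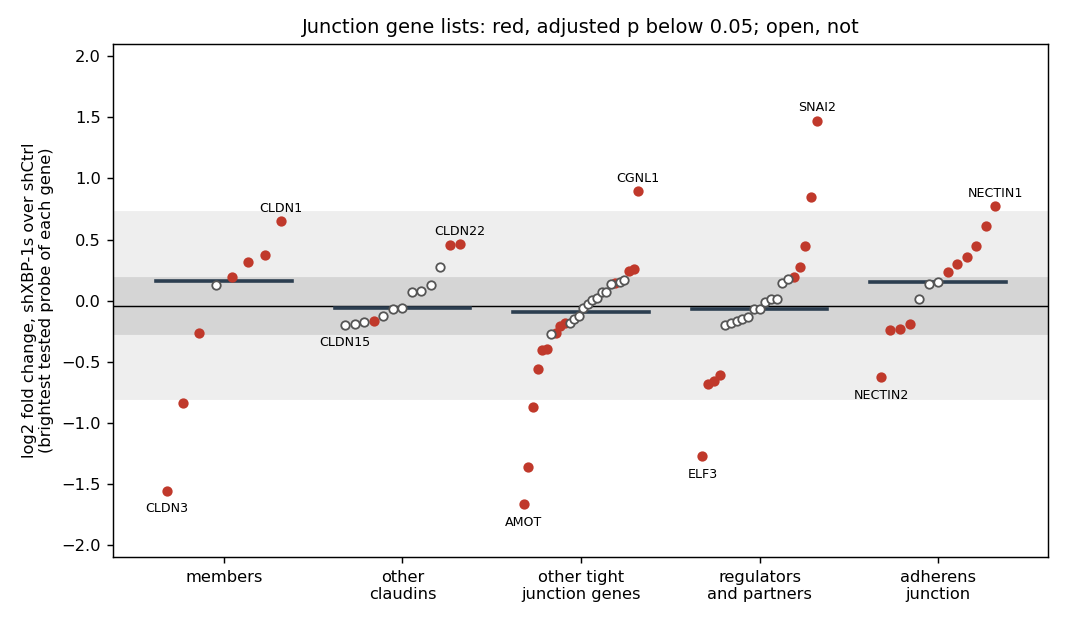
The y axis is the log2 fold change, shXBP-1s over shCtrl, of the brightest tested probe of each gene, and the x axis the 5 gene lists; red points changed (adjusted p below 0.05), open points did not pass, short bars are list medians, and grey bands span the 25th to 75th and the 5th to 95th percentiles of all genes. CLDN3 (-1.55) and CLDN12 (-0.84) lie below the wider band among the members, and no other claudin lies outside it; AMOT, the lowest point, was not well above background in shXBP-1s, so its fitted value is no measured size.

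The label of the cells was checked against markers. All 8 squamous epithelial markers (KRT5, KRT14, KRT17, TP63, CDH1, EPCAM, SFN and DSG3) were measured above background. In shXBP-1s 6 of them rose, against 18.9% of all genes. KRT5, KRT14, KRT17 and DSG3 rose by 2-fold or more (log2 changes of 1.17 to 1.58), against 2.3% of all genes. The summed signal of all 8, relative to the 75th percentile, was 102 to 109 in shCtrl and 135 to 160 in shXBP-1s. The squamous markers thus also moved between the groups, and their part in the members' changes was not tested. In RNA from a whole culture, fewer cells of a type and less RNA per cell cannot be told apart. None of the 6 tested endothelial markers changed, and their summed level, TEK below background included, was 0.28 to 0.33 in shCtrl and 0.31 to 0.34 in shXBP-1s. Fibroblast markers summed to 0.96 to 1.06 in shCtrl and 0.66 to 0.68 in shXBP-1s. Of 5 tested, LUM (log2 change 1.94) and DCN (1.43) rose, and COL1A1 (-0.63) and PDGFRB (-1.28) fell. COL1A2 did not pass the test (-0.07, adjusted p = 0.551 by limma). The 80% that changed stood beside 46.4% of all genes, and 3 passed 2-fold, against 5.18% of all genes. PDGFRB had the largest signals of the list, 472.4 to 598.4 in shCtrl and 222.3 to 319.3 in shXBP-1s. COL3A1 was not well above background on any array and was not tested. Leukocyte markers summed to 4.39 to 6.27 in shCtrl and 3.05 to 3.29 in shXBP-1s, mostly through CD14, which fell by 0.84 (SE 0.13), and their part in the members' changes was not tested either.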

How the data were processed

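RNA of 6 CAL-27 samples (3 shXBP-1s, 3 shCtrl, as labelled) was hybridised to 1-colour Agilent arrays with Cy3. The labels describe a NimbleGen labelling procedure, whereas the files are Agilent scanner output. The authors deposited the output of Feature Extraction 11.0.1.1, and the deposited intensity used here is the processed signal of each spot, from which that software had removed background. A second deposited file holds log2 values with equal quartiles on the 6 arrays; the submitters' processing notes name RMA, its steps are not given in the sources used here, and it served only as an alternative.

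From the intensities, log2 was taken and each array's 75th percentile over non-control spots subtracted. Of 44495 spots per array, 1377 were controls; 230 to 377 spots flagged as outliers were left out. No spot was saturated. Spots of a probe were averaged, and a probe was well above background where more than 50% of its spots were. Between 82.1% and 84.8% of spots were above background per array. The 19 probes with no unflagged spot on some array were dropped. Testing needed a probe to be well above background in each replicate of shCtrl or of shXBP-1s; the 27624 such probes were fitted in R 4.3.3 with limma 3.58.1 (lmFit, eBayes with trend, Benjamini-Hochberg). The fit was tested on simulated data. Changed means an adjusted p below 0.05. For 3 member pairs, ratios within an array were compared by exact permutation; the pair of TJP1 with TJP3 was not computed.

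Probes were named by accession through the RefSeq table (GRCh38.p14), and a gene was represented by its brightest tested probe. The array's design is annotated on another build, so no gene coordinates of it are printed. The text names all members with every probe, XBP1, each gene of the 4 further lists that changed by 2-fold or more (up to 5 each way), and the landmarks CDH1, EPCAM, GRHL2 and SNAI2 (a further landmark is not reported here); other named genes are marked as named after their values were seen. The members and lists were chosen with earlier results of these data known. Alternatives were normexp (offset 50, on the median spot signal, as the files hold no mean) alone or with quantile normalization, quantile normalization, the second deposited file, a laxer and a stricter filter on dim probes, no variance trend, a replicate or scan block, the methods' t-test, the mean over probes, a threshold of 0.01, and each array left out. No counting depth applies to arrays; 3 per group limit the precision.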

Additional observations from a re-analysis of the deposited data

How the results depend on the processing

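For single probes and genes, 190 tested values kept their direction and side of the threshold under an alternative, 18 lost significance, 4 (all F11R) gained it and 1 reversed. Of the counts of genes or probes, 188 stayed within 1.5 times the reported count, 31 were lower and 1 higher. Of the pair ratios, 21 moved by less than the spread between replicates, 2 by more, and 2 reversed. The cause was not tested. Under normexp the median of all tested probes was -0.41 (-0.022 in the reported fit), 4507 probes changed and 473 of them by 2-fold (11516 and 1354 in the reported fit), 0 other claudins changed, 4 other tight junction genes changed and 0 by 2-fold, 5 adherens junction genes changed, CLDN4 was at -0.095, OCLN at 0.15 and its dimmer probe reversed to -0.038, and the pair ratios were -1.20 (CLDN3 to CLDN4), 0.41 (CLDN1 to CLDN7) and, reversed, -0.11 (OCLN to F11R). That ratio was also reversed with the dimmer F11R probe (-0.20), an alternative chosen after seeing the data. Under normexp with quantile normalization 363 probes changed by 2-fold, 0 members and 0 other tight junction genes did so, CLDN4 was at -0.19 and F11R, now passing, at 0.23. Quantile normalization gave CLDN4 -0.21 and F11R 0.25 (passing); the deposited log2 values gave CLDN4 -0.20, F11R 0.22 (passing) and 1 other tight junction gene past 2-fold. That count was also 1 with no filter on dim probes, without the variance trend, by the methods' unadjusted t-test and with the mean over probes, and 0 with probes above background on all 6 arrays. CLDN4, at -0.26, lost its call with no filter, without the trend and by the methods' t-test, before and after adjustment; the adjusted t-test left 7 other tight junction genes changed and 0 past 2-fold. The mean over probes gave F11R 0.35. With the scan as a block 6 other tight junction genes changed and 0 by 2-fold, CLDN4 was at -0.086 and TJP1 at 0.18. At an adjusted p below 0.01, 1 other claudin and 6 other tight junction genes changed. Leaving out 1 array in turn gave CLDN4 -0.35 to -0.19, TJP1 0.15 to 0.23, 1 to 5 other claudins changed, and 8 to 12 other tight junction genes changed with 1 to 2 past 2-fold.

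The replicate numbers did not pair the samples: deviations of same-numbered arrays correlated at -0.016, 0.12 and -0.12. With the replicate block 1 other claudin changed in place of 3, and the calls of the members did not change.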
